A study of Mus musculus with 4 samples.

Results

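Transcripts of wild-type immature granulocytes, which are marrow precursors of neutrophils, were described from the 2 wild-type (WT) arrays of a series of 4. The cells were sorted out of marrow from wild-type males of the C57BL/6 strain, and each RNA sample was hybridised alone, in a single colour, to a mouse whole-genome array of 60-base probes. The remaining 2 arrays were of miR-223 knockout cells and were not used. The labels give no age, no sort gate and no word on whether both WT samples came from separate animals, so the spread between them may be technical. Of 27630 genes on the array, 15891 (57.5%) had a probe that the scanner software marked as well above background on both WT arrays. These are the measured genes. A gene was represented by its brightest such probe.

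Granulocytes are built in steps. Promyelocytes first make azurophil granules, which hold myeloperoxidase and serine proteases, myelocytes then make specific granules with lactoferrin and antimicrobial peptides, and later stages add gelatinase granules and secretory vesicles. Division stops between the myelocyte and metamyelocyte stages, and factors of the C/EBP family and PU.1 drive the granule genes. Immature granulocytes of marrow therefore form a mixture of dividing and granule-making stages, and a bulk sample cannot tell fewer cells of a stage from less RNA per cell.

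The 7 marker genes of immature granulocytes were all measured, and all lay in the top 10% of measured genes. Levels are given as log2 processed signal minus the 75th percentile of that array, so that 0 is the 75th percentile (a signal of 314 on the WT replicate 1 array and 310 on the WT replicate 2 array) and 1 unit is 2-fold. Mpo, myeloperoxidase, stood at 9.99 and 10.12 on WT replicates 1 and 2, rank 7 of all measured genes. Ltf, lactoferrin, stood at 10.09 and 10.13, rank 5. Ctsg, the protease cathepsin G, stood at 8.04 and 7.95, rank 74. The azurophil protease Prtn3 had the lowest level of the 7, at 5.97 and 6.01 and rank 357. Among the specific granule markers, Camp, which encodes the cathelicidin peptide, stood at 9.24 and 9.53 (rank 18). Ngp, neutrophilic granule protein, stood at 9.29 and 9.44 (rank 19). Lcn2, an iron-scavenging lipocalin, stood at 7.89 and 8.30 (rank 69), the widest gap between arrays among the 7.

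The order of genes is an order of probe signals, not of transcript numbers, because probes differ in how well they hybridise and where they lie. The size of that uncertainty can be read from genes with several measured probes. In 5607 such genes the brightest and dimmest probe differed by a median of 2.47 on the log2 scale. They differed by more than 1 in 79.2% of these genes and by more than 3, which is 8-fold, in 40.4%. The other 10284 measured genes rest on 1 measured probe, Mpo, Prtn3, Ctsg, Camp, Ngp and Lcn2 among them. Ltf had a second probe, at a mean level of 9.65 beside 10.11.

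Upstream sequences of granule and cell cycle genes are shown because they carry the short motifs by which these groups are usually recognised. They come from RefSeq promoters of GRCm38.p6 and give, 5′ to 3′ on the strand of the gene, the 120 bases before the start. In the 4 granule genes capitals mark GAGGAAGT (a PU.1 motif) or TTGCNNAA (a C/EBP motif), and in the 3 cell cycle genes TTTNNCGC (an E2F motif), TTTGAA (the cell cycle homology region, CHR) or CCAAT. Each was searched on both strands. Elane encodes neutrophil elastase (chr10:79886192-79886311, plus strand). Prtn3 lies beside it (chr10:79879547-79879666, plus strand). The windows of Ltf (chr9:111019172-111019291, plus strand) and Ngp (chr9:110419688-110419807, plus strand) are from specific granule genes. Mki67 encodes the proliferation antigen Ki-67 (chr7:135716380-135716499, minus strand), Mcm6 a subunit of the replicative helicase (chr1:128359706-128359825, minus strand) and Pcna the sliding clamp of DNA polymerase (chr2:132253181-132253300, minus strand).
Elane: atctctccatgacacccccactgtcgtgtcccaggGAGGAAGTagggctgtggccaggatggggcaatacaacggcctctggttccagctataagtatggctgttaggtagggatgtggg
Prtn3: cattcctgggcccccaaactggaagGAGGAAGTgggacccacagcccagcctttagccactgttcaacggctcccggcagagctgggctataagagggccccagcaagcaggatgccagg
Ltf: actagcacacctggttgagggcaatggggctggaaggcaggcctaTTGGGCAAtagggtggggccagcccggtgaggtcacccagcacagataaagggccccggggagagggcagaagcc
Ngp: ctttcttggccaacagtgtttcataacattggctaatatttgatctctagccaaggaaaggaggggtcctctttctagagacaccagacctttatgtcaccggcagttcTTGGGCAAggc
Mki67: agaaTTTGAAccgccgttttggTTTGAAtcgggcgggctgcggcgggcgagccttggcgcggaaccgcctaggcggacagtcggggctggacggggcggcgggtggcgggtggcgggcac
Mcm6: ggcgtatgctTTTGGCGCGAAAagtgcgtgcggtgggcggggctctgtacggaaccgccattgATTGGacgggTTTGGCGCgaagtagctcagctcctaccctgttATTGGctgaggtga
Pcna: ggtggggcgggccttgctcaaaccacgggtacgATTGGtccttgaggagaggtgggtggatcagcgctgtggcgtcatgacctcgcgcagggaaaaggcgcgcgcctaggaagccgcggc

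The PU.1 motif lay 78 to 85 bases before the start in Elane and 88 to 95 bases before it in Prtn3. The C/EBP motif lay 68 to 75 bases before the start of Ltf, and 4 to 11 bases before that of Ngp, in both on the reverse strand. In Mki67 the 2 CHR matches lay 93 to 98 and 111 to 116 bases before the start. In Mcm6 the first capital run holds 2 overlapping E2F matches, at 99 to 106 and 103 to 110 bases, and a further E2F match lay at 40 to 47 bases. Mpo, Ctsg, Camp and Lcn2 held neither granule motif in their 120 bases. Birc5, of the mitosis list, held none of the 3 cell cycle motifs in its 120 bases.

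Over whole lists the motifs were counted in 250 bases before the start. The PU.1 motif was in 25% of 16 azurophil promoters and 13% of 23 specific granule promoters, beside 2.44% of all 32841 promoters and 2.52% of those of measured genes. Its share was 3.23% in gelatinase and late promoters and 5.71% in ribosomal promoters. The C/EBP motif was in 12.5% of azurophil, 21.7% of specific granule and 25.8% of gelatinase and late promoters, beside 9.57% of all promoters and 7.57% of those of measured genes. CCAAT was in 77.5% of 40 mitosis promoters and CHR in 37.5%, beside 33.9% and 16.0% of all promoters. CCAAT was also in 57.4% of G1/S, 47.8% of specific granule and 45.2% of late promoters, and CHR in 26.1% of specific granule but 10.6% of G1/S promoters. The C/EBP motif was in 14.8% of oxidative phosphorylation promoters, a larger share than in azurophil promoters. E2F matches were in 25.5% of 47 promoters of G1/S and replication genes, beside 4.28% of all promoters and 6.63% of those of measured genes. The E2F motif was in 0 promoters of the 3 granule lists. A match is a description of letters and not a bound site, and the number of promoters per list is small.

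The measured signals spanned from -5.50 to 10.77 with a median of -0.13. The 10 genes with the highest signal held 8.42% of the summed signal of measured genes, the top 20 held 13.9% and the top 100 held 33.0%. Both arrays gave the same 20 genes as their top 20 and shared 97 of the top 100. Of the 79 measured genes on the 3 granule lists, 8 were among the top 20, S100a8 and S100a9 included, and 16 among the top 100. Together these 79 genes, 0.497% of measured genes, held 8.54% of the summed signal on WT replicate 1 and 8.86% on WT replicate 2. Of this, 1.38% and 1.5% came from S100a8 and S100a9, which are on the late list but encode proteins of the cytosol. The other 77 genes held 7.16% and 7.36%. Not all of these are particular to granules: Gpi1, at 8.95 and 8.96, is also on the glycolysis list.

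The brightest probe belonged to Rn18s, the 18S ribosomal RNA, at 10.67 and 10.86, and a second Rn18s probe had a mean of 9.75. S100a9, a subunit of the calcium-binding protein calprotectin of neutrophil cytosol, followed at 10.27 and 10.31, and its partner S100a8 stood at 9.37 and 9.62. Chil3, a chitinase-like secreted protein, stood at 9.45 and 9.46. Lyz2, one of the lysozyme genes, stood at 9.40 and 9.71, and its dimmer probe had a mean of 7.79. Tmsb4x, which encodes the actin-binding peptide thymosin beta 4, stood at 9.32 and 9.26 and closed the top 20. The levels of these genes on both arrays differed by 0.31 or less.

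Core histone genes filled 7 of the top 20 places. H2ac1 stood at 10.23 and 10.25, H2ac20 at 10.16 and 10.26 and H2ac10 at 10.04 and 10.10. H2aj, H4c6, H2ac23 and H4c4 had means between 9.56 and 9.88. Selected by symbol after the order was seen, 47 of 53 histone genes on the array were measured, 29 of them in the top 10%, with levels from -5.16 to 10.24 and a median of 5.47. They held 7.63% and 8.0% of the summed signal. Many histone genes are near-identical copies, so their probes can bind transcripts of other members, and single values of such genes are uncertain.

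Lrrc58 and Ptprz1 were in the top 20 through a single probe each. The 4 probes of Lrrc58, a leucine-rich repeat protein, had means of 9.96, 0.45, -0.78 and -1.72. Of the 4 probes of Ptprz1, a receptor tyrosine phosphatase of the nervous system, the brightest had a mean of 9.84, the next -5.13, and the other two were not well above background on both arrays. H2aj was likewise split, at 9.88 and 0.81. Lars2, the mitochondrial leucyl-tRNA synthetase, stood at 9.45 and 9.74 on its single probe. Among genes with 3 or more measured probes, the widest spans were 12.92 for Igh-VJ558 (9 probes of immunoglobulin heavy chain variable segments), 11.71 for Flna, 11.69 for Lrrc58, 11.30 for Acta2 and 11.21 for Rps18. Between the arrays, the probes of these 5 genes differed by 0.37 or less.

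**Figure D1:**
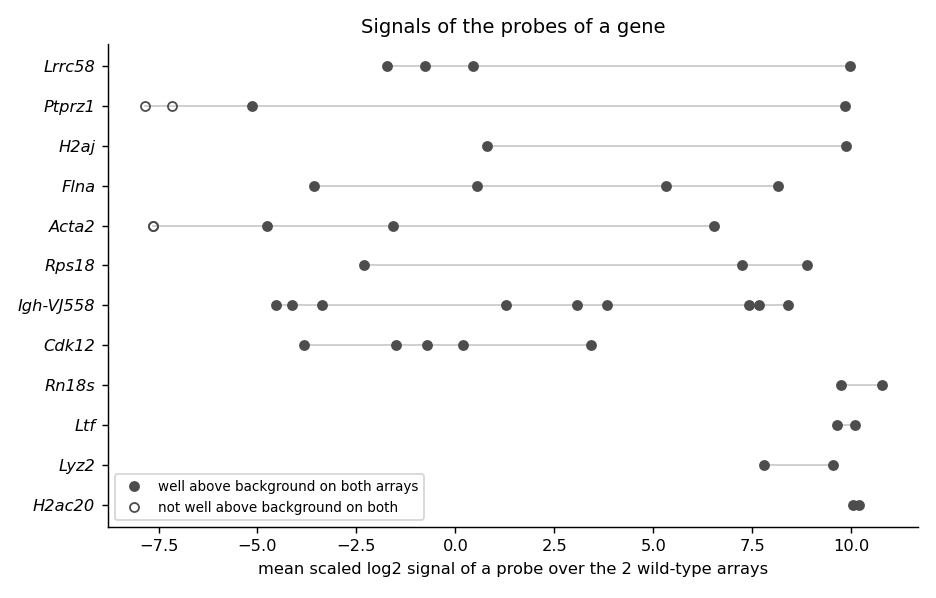
Mean scaled log2 signal over both WT arrays of every probe of 12 genes, filled where the probe was well above background on both arrays and open where it was not. Lrrc58 has a probe at 9.96 and 3 below 0.5, whereas both probes of Ltf lie at 9.65 and 10.11.

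The azurophil granule list, which also holds the glycolysis gene Gpi1 and the protease inhibitor gene Serpinb1a, was bright as a group. Of its 18 genes 17 were measured, 14 of them in the top 10% of all measured genes. Their median level was 6.15, beside -0.13 for all measured genes. The members of all 26 lists were chosen with earlier results of these data known, so list counts and medians may partly reflect that choice. Besides Mpo, Ctsg and Prtn3, the neutrophil elastase gene Elane stood at 5.12 and 5.23. Serpinb1a, an inhibitor of these proteases, stood at 7.89 and 7.75, and the granule proteoglycan gene Srgn at 6.49 and 6.35. The membrane protein genes Cd63 and Ms4a3 stood at 6.16 and 6.14 and at 6.32 and 6.16. Lyz1 showed the widest gap on the list, at 8.93 on WT replicate 1 and 8.01 on WT replicate 2. Lyz1 and Lyz2 are close paralogs, and their probes may not separate them. Near the median of all genes were Ctsc, which activates the serine proteases, at 0.62 and 0.77, and Igfbp4 at 0.33 and 0.55. Clec11a was the lowest measured member at -2.49 and -2.36. Bpi, the bactericidal permeability-increasing protein, was not well above background on either array.

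Specific granule genes had 26 of 27 members measured and 17 in the top 10%, with a median level of 6.43. Below Ltf, Chil3, Camp and Ngp came Anxa1, the anti-inflammatory annexin A1, at 8.98 and 8.91, and Hp, haptoglobin, at 8.92 and 8.72. Pglyrp1, a peptidoglycan-binding protein, stood at 7.21 and 7.18, and Cd177, a neutrophil surface protein, at 6.29 and 6.30. Mmp8, the neutrophil collagenase, stood at 3.49 and 3.62. Olfm4, which marks a subset of neutrophils, was near the median of all genes at 0.22 and 0.35. Pla2g2d was the lowest measured member at -3.68 and -3.69. Arg1, arginase 1, was not well above background on either array.

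Gelatinase granule, secretory vesicle and other late genes spread more widely: 37 of 38 were measured, 15 in the top 10%, with a median level of 2.63. Mmp9, the gelatinase itself, stood at 4.13 and 4.24, and the integrin subunits Itgam and Itgb2 at 3.99 and 3.97 and at 5.57 and 5.58. Wfdc21, a small secreted protein of the whey acidic protein family, stood at 8.36 and 8.77, and the protease inhibitor gene Slpi at 7.02 and 6.86. Receptors of neutrophils were split. Trem3 stood at 4.87 and 4.84 and Ltb4r1, on the specific granule list, at 7.18 and 7.12. Others were lower. Csf3r, the receptor for G-CSF, stood at 2.41 and 2.34. Cxcr2, the receptor for neutrophil chemokines, stood at 2.14 and 2.13, and the formyl peptide receptor Fpr1 at 2.16 and 2.18, whereas Fpr2 stood at 5.46 and 5.41. The size of the gap between Fpr1 and Fpr2 depends on the probe. The 2 measured probes of Fpr2 had means of 2.62 and 5.43, and those of Cxcr2 -0.4 and 2.14. Il1b, a cytokine of activated cells, stood at -0.39 and -0.69. Ptgs2, the inducible cyclooxygenase, was the lowest measured member at -2.53 and -2.97. Alpl, alkaline phosphatase of secretory vesicles, was well above background on 1 of the 2 arrays, and BC100530 and Cstdc6 had no probe. The stefin genes Stfa1, Stfa2, Stfa3 and Stfa2l1 had means between -1.23 and 2.38, and as close copies they are uncertain one by one.

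**Figure D2:**
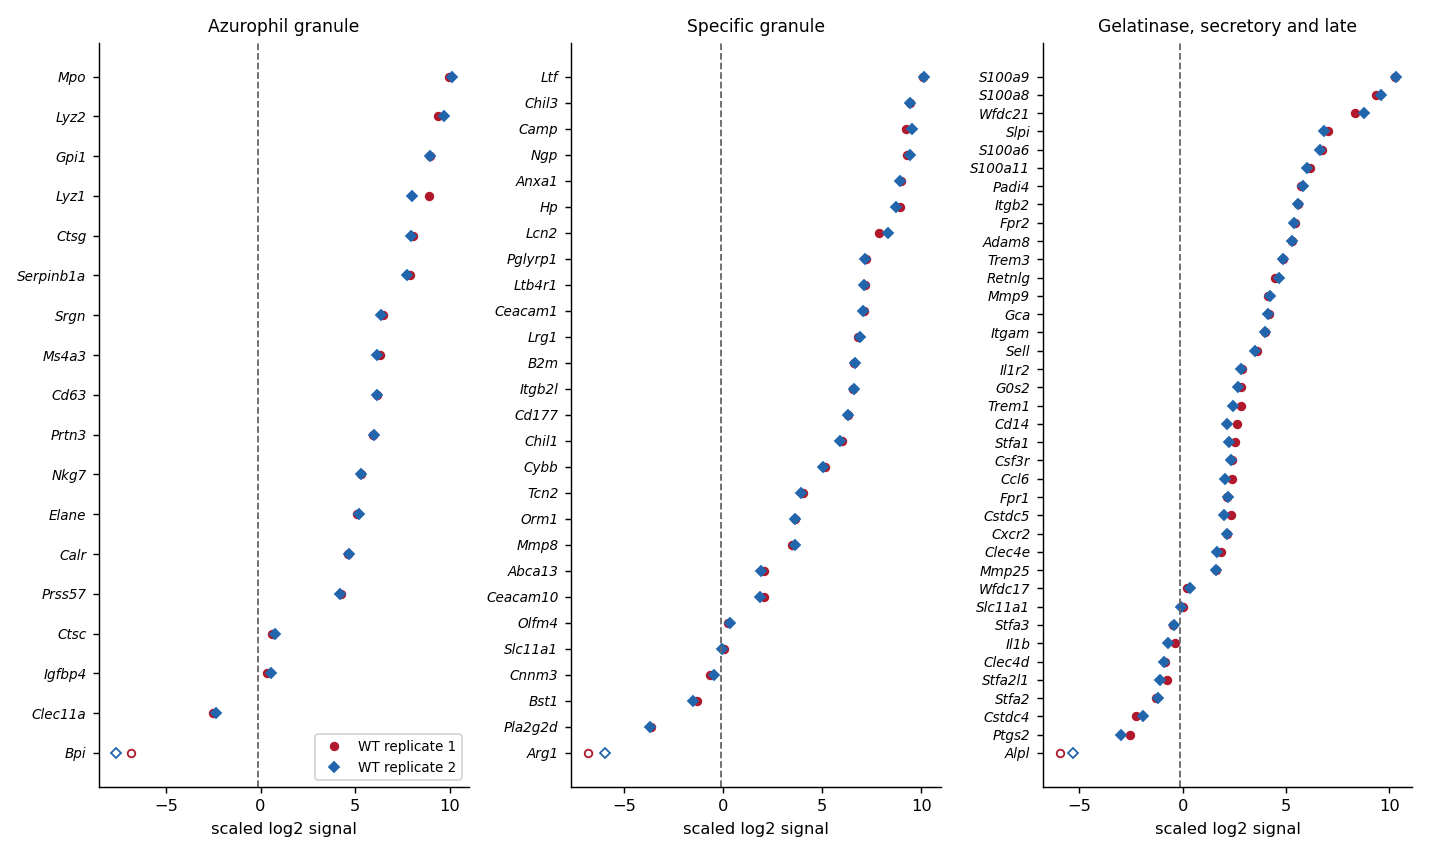
Scaled log2 signal of granule genes on WT replicate 1 (circles) and WT replicate 2 (diamonds), sorted by their mean in each of 3 lists. Open symbols were not well above background on both arrays, and the dashed line is the median of all measured genes at -0.13. The symbols of both arrays nearly coincide, the widest gap being that of Lyz1.

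All 8 genes of the NADPH oxidase, which makes superoxide in phagocytes, were measured and in the top 10%, with a median level of 5.33. The membrane subunits Cybb and Cyba stood at 5.13 and 5.06 and at 5.63 and 5.81. The cytosolic subunit Ncf1 stood at 5.10 and 5.09, and Ncf4 was the brightest at 8.24 and 8.25. The GTPase genes Rac2 and Rac1 stood at 7.68 and 7.64 and at 4.28 and 4.28, and the proton channel gene Hvcn1 at 5.56 and 5.55. The arrays differed by a median of 0.01 over these 8 genes.

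Genes of cell division were measured throughout. All 45 mitosis genes were measured, 15 in the top 10% and 42 above the median of all genes, with a median level of 2.61. Stmn1, which regulates microtubules, led at 7.37 and 7.30, followed by Mki67 at 6.69 and 6.71 and Birc5, a subunit of the chromosomal passenger complex, at 6.38 and 6.30. This order rests on the brightest probe. The measured probes of Stmn1 had means of 4.33 and 7.34, and those of Mki67 4.85 and 6.7. The lowest were the checkpoint kinase gene Ttk at -1.37 and -1.22, the phosphatase gene Cdc25c at -0.96 and -0.96 and the kinesin gene Kif2c at -0.26 and -0.27. All 47 genes of G1/S and DNA replication were measured too, 19 in the top 10%, with a median level of 3.59. Mcm6 stood at 6.71 and 6.71, Pcna at 6.37 and 6.16 and E2f2, a factor of the E2F family, at 5.94 and 5.99.

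The cyclin D genes were split: Ccnd3 stood at 6.55 and 6.6, whereas Ccnd1 was the lowest measured G1/S gene at -1.83 and -1.93. Orc1, of the origin recognition complex, stood at -1.89 and -1.73 and the kinase gene Cdk2 at -1.62 and -1.66. Of 12 genes of CDK inhibitors, pocket proteins and repressive E2F factors, 10 were measured and 1 was in the top 10%, with a median level of 1.97. That gene was Cdkn2d, which encodes the inhibitor p19, at 4.72 and 4.52. Rb1, the retinoblastoma protein, stood at 3.16 and 3.06, Cdkn2c at 2.92 and 2.75, and Cdkn1b, which encodes p27, at 2.35 and 2.09. The order of Rb1, Cdkn2c and Cdkn1b depends on the probe. Their measured probes ran from -2.86 to 3.11, from 2.64 to 2.84 and from -0.7 to 2.22. Cdkn1a, which encodes p21, stood at -0.11 and -0.28. Cdkn2a and Cdkn2b were not well above background on either array.

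Among metabolic lists, pentose phosphate, oxidative phosphorylation and glycolysis were bright and lipid synthesis was not. In the pentose phosphate pathway, which supplies NADPH, 7 of 7 genes were measured and 6 were in the top 10%, with a median of 6.35. Its transketolase gene Tkt stood at 8.57 and 8.54, Taldo1 at 8.08 and 8.07 and G6pdx, the entry enzyme, at 7.03 and 6.96. All 23 glycolysis genes were measured and 15 were in the top 10%, with a median of 4.78. The isomerase gene Gpi1, which the azurophil list also holds, stood at 8.95 and 8.96, but its other probe, at -2.21, was 11.16 lower. Aldoa, aldolase A, stood at 8.78 and 8.70 and Gapdh at 7.83 and 7.73. Slc2a1, a glucose transporter, stood at 0.47 and 0.22. Slc2a3, another glucose transporter, stood at 5.13 and 4.98, with its dimmer measured probe at 0.69. The isozyme genes Pfkm and Aldoc were below the median of all genes at -1.09 and -0.91 and at -3.25 and -3.31.

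All 34 oxidative phosphorylation genes were measured, 28 in the top 10%, with a median of 4.97. Cox6a1, a subunit of cytochrome oxidase, led at 8.07 and 7.99. The TCA cycle had 23 of 23 measured, 7 in the top 10% and a median of 3.09, with Mdh2, the mitochondrial malate dehydrogenase, at 7.12 and 7.02 and Suclg2 lowest at -1.31 and -1.33. Fatty acid oxidation had 12 of 12 measured, 1 in the top 10% and a median of 2.45. Its brightest member, the thiolase gene Acaa2, stood at 4.27 and 4.09. Lipid and cholesterol synthesis had 24 of 24 measured, 1 in the top 10% and a median of 1.15. Srebf2, the factor that drives sterol genes, stood at 3.96 and 3.79, Fasn, fatty acid synthase, at 3.27 and 3.31, and the desaturase gene Scd1 lowest at -3.19 and -3.73. The measured probes of Tkt spanned 9.08, those of Srebf2 8.51 and those of Fasn 6.82. Genes of ribosomal proteins and elongation factors had 41 of 41 measured and 40 in the top 10%, with a median of 7.47 and 6.33% and 6.29% of the summed signal. Rpl14 was the exception at 0.56 and 0.48.

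**Figure D3:**
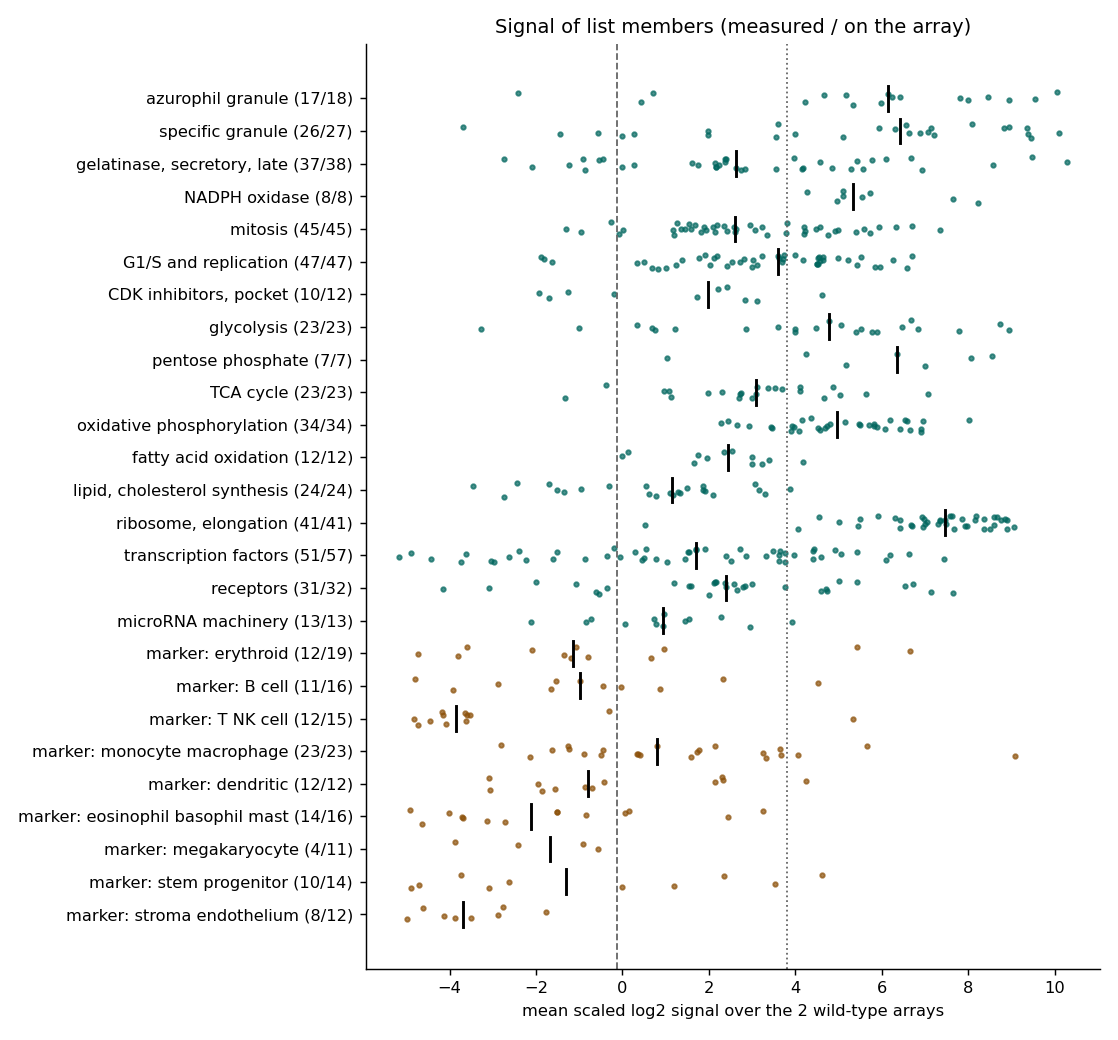
Mean scaled log2 signal over both WT arrays of every measured member of 26 gene lists (points), with the list median (bar), the median of all measured genes (dashed, -0.13) and the lower edge of their top 10% (dotted). Numbers give members measured and on the array. The medians run from 7.47 for the ribosome to -3.86 for T and NK cell markers.

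Transcription factors had lower signals than the granule genes. Of 57 on the array 51 were measured and 12 were in the top 10%, with a median level of 1.7. The brightest were Hmgb2, a chromatin protein, at 7.40 and 7.48, and Cebpd at 6.69 and 6.59. Klf2 stood at 6.30 and 6.11 and Klf6 at 6.27 and 5.91. In the C/EBP family, Cebpb stood at 3.66 and 3.61 and Cebpa, which starts granulocyte commitment, at 0.83 and 0.71, and Cebpe had no probe. The order of Cebpb and Cebpa depends on the probe. The 2 measured probes of Cebpb had means of 0.44 and 3.63, and those of Cebpa -2.21 and 0.77. Spi1, which encodes PU.1, stood at 1.64 and 1.76, and Gfi1, a repressor needed for neutrophil formation, at 3.70 and 3.84. Irf8, which favours the monocyte fate, stood at 3.67 and 3.62 and Klf4 at 3.32 and 3.32. The dimmer measured probe of Irf8 had a mean of 0.84.

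Factors of proliferating progenitors were split. Myb stood at 4.05 and 3.92 and Myc at 1.45 and 1.59. The Myc partner Max stood at 4.63 and 4.55 and the Myc antagonist Mxd1 at 4.48 and 4.37. The measured probes of Myb ran from 0.11 to 3.98, those of Myc from -1.72 to 1.52 and those of Mxd1 from 0.43 to 4.42. Hoxa9 and Meis1, of stem and early progenitor cells, stood at -3.42 and -4.05 and at -4.96 and -4.84. Lef1 had the lowest level among the measured factors at -5.11 and -5.23. Gata1, Gata2, Gfi1b, Mycn, Hoxa10 and Rara were not well above background on both arrays.

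The list of receptors and surface proteins, without the factor Gfi1 that it also holds, had 30 of 31 genes measured and 9 in the top 10%, with a median of 2.39. Fcer1g, the signalling chain of Fc receptors, stood at 7.68 and 7.61. Ltb4r1, the leukotriene B4 receptor, stood at 7.18 and 7.12, and Csf2ra, the alpha chain of the GM-CSF receptor, at 6.76 and 6.71. The lowest were Il1r1 at -4.24 and -4.08, the progenitor receptor Flt3 at -2.91 and -3.26 and the complement receptor C5ar1 at -2.06 and -1.95. Ccr1 was not well above background on both arrays, and Ly6g, the usual surface marker of mouse neutrophils, had no probe. The microRNA machinery had 13 of 13 genes measured, 1 in the top 10% and a median of 0.95. Among its Argonaute genes Ago2 stood at 3.85 and 4.0, Ago1 at -0.82 and -0.61, Ago4 at -0.88 and -0.81 and Ago3 at -2.10 and -2.13. The 4 measured probes of Ago2 ran from -1.02 to 3.92. Drosha and Dicer1, which process precursors, stood at 2.31 and 2.26 and at 1.5 and 1.6.

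**Figure D4:**
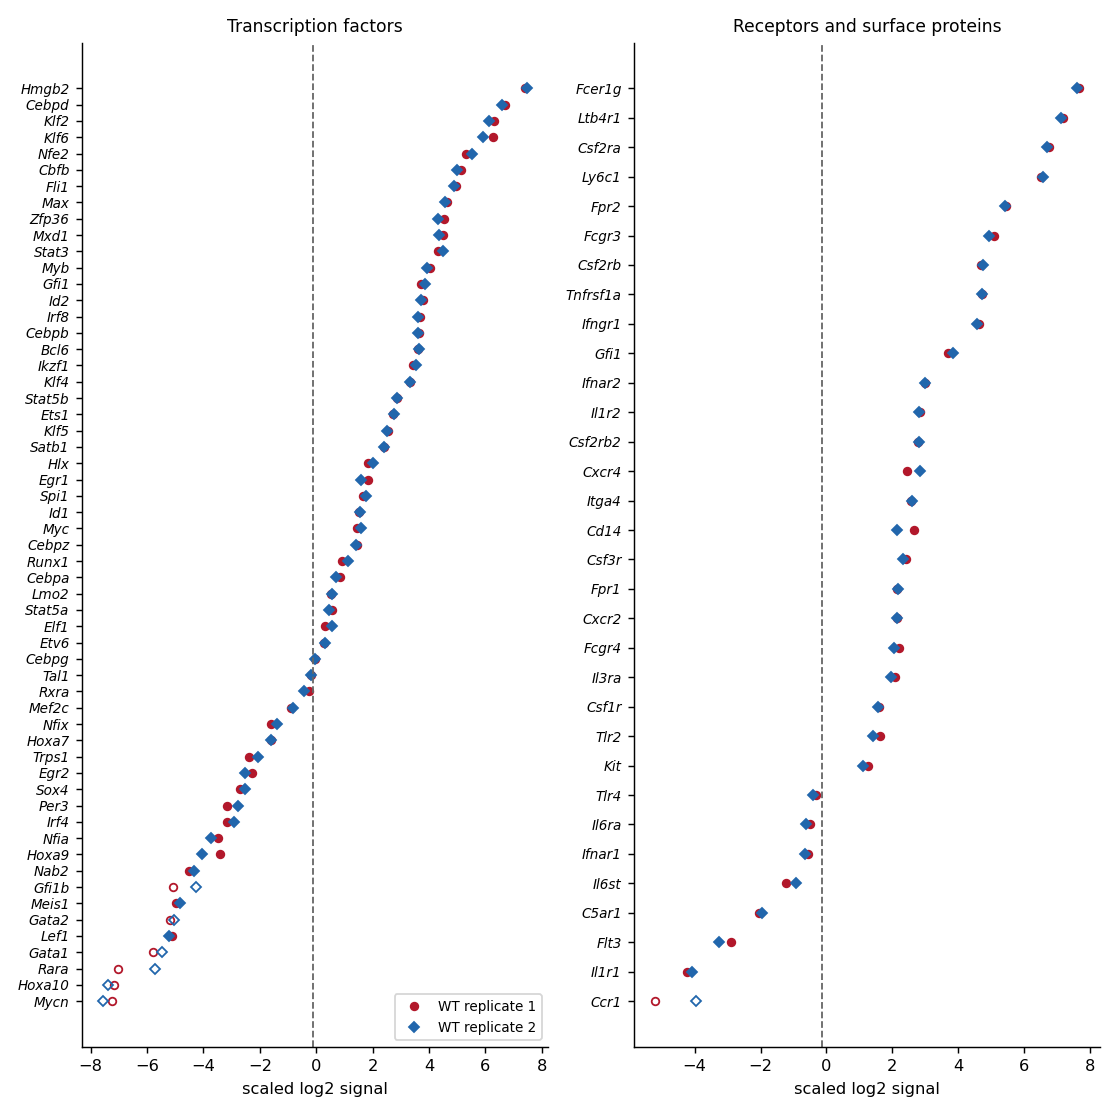
Scaled log2 signal of transcription factors (left) and of receptors and surface proteins (right) on WT replicate 1 (circles) and WT replicate 2 (diamonds). Open symbols were not well above background on both arrays, and the dashed line marks the median of all measured genes at -0.13. Factors run from Hmgb2 at a mean of 7.44 to Mycn, which was not well above background.

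Markers of other bone marrow cells had a median below that of all genes, but most were above background. Of 136 marker genes on the array, some in more than 1 list, 77.2% were measured, beside 57.5% of all genes. Of those measured, 9 (8.57%) were in the top 10%, and their median level was -1.23. They were 0.661% of measured genes and held 0.736% of the summed signal on either array. The monocyte and macrophage list had 23 of 23 measured and a median of 0.80, and with 0.145% of measured genes held 0.498% and 0.495% of the summed signal. Most of that share came from Ly6c2, an antigen of monocytes that granulocyte precursors also carry. Its signal was 172071.5 and 169043.7 (levels of 9.10 and 9.09). The next brightest member, Lgals3, galectin 3, had signals of 16488.2 and 15006.5 (levels of 5.71 and 5.60). F13a1 stood at 4.06 and 4.07. Erythroid markers had 12 of 19 measured and a median of -1.14, led by the globin genes Hbb-bt at 6.68 and 6.64 and Hba-a1 at 5.45 and 5.40. Klf1, Epb42, Rhag, Sptb and Gata1 were among those not well above background on both arrays. The erythroid list held 0.111% and 0.108% of the summed signal.

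B cell markers had 11 of 16 measured and a median of -0.97. Cd74, the invariant chain, stood at 4.38 and 4.65, and the B cell factors Pax5 and Ebf1 were not well above background on both arrays. T and NK cell markers had 12 of 15 measured and a median of -3.86, and all but Nkg7 and Cd3d lay below -3. Nkg7, which is also on the azurophil list, stood at 5.32 and 5.34. Dendritic markers had 12 of 12 measured with a median of -0.79, the MHC class II gene H2-Ab1 leading at 4.15 and 4.37. Eosinophil, basophil and mast cell markers had 14 of 16 measured with a median of -2.11, led by Ear1 at 3.36 and 3.15. Megakaryocyte markers had 4 of 11 measured, stem and progenitor markers 10 of 14 and stroma and endothelium 8 of 12, with medians of -1.67, -1.31 and -3.69. Ly6a, the Sca-1 antigen, led the stem list at 4.51 and 4.75. The part of other cells in the levels of shared genes was not tested.

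Pearson's r between the signals on both arrays, across the 15891 measured genes, was 0.996 and Spearman's rho 0.996, a description only, since genes are not replicates. The median absolute log2 difference was 0.116, the 95th percentile of it was 0.56, and the SD per gene pooled over genes was 0.197. The difference shrank with signal, from a median of 0.265 in the dimmest 10% of genes to 0.081 in the brightest. For 146 measured probes printed 10 times on each array, the median SD between spots of an array was 0.0884 and 0.0735, and the median absolute difference between the arrays was 0.138.

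**Figure D5:**
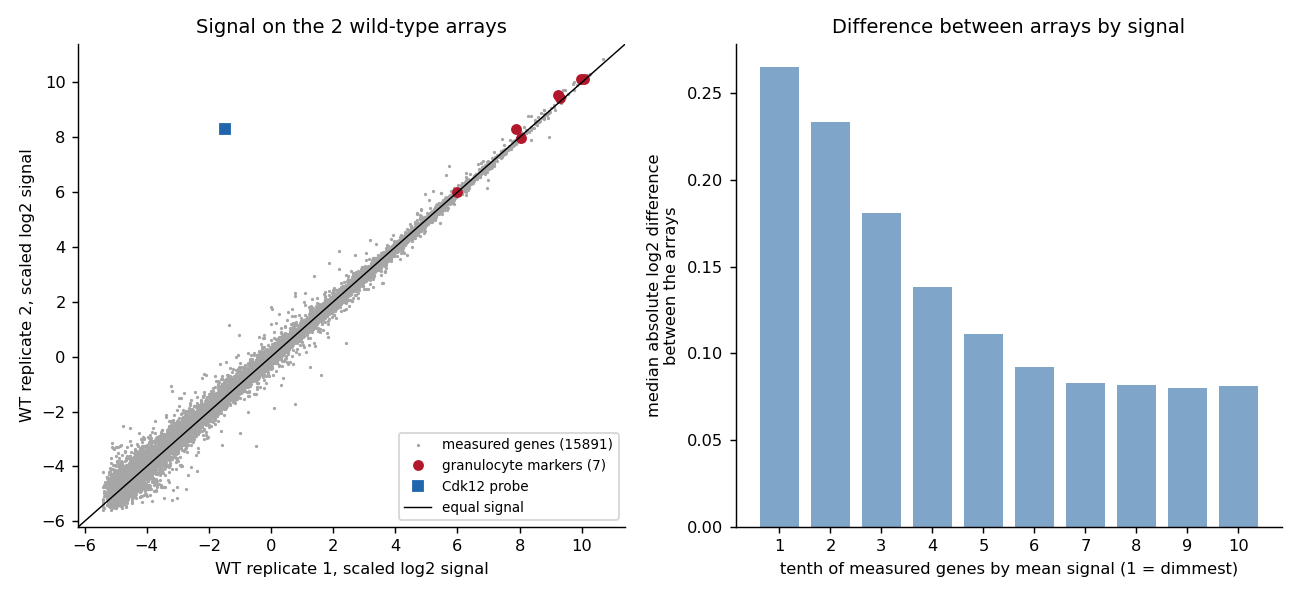
Left, scaled log2 signal of 15891 measured genes on WT replicate 1 (x axis) and WT replicate 2 (y axis), with the 7 granulocyte markers in red and the Cdk12 probe as a square. Right, median absolute log2 difference between the arrays in 10 equal classes of genes by mean signal, falling from 0.265 to 0.081.

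A 2-fold or larger difference between the arrays was seen in 136 of 15891 genes (0.856%), 47 of them higher on WT replicate 1 and 89 on WT replicate 2. This count and the median difference depended on the processing. With normexp the count was 5032, the median absolute difference 0.716 and r 0.965, and with normexp fitted without control spots they were 27, 0.0797 and 0.998. The count was 725 where a probe well above background on at least 1 array sufficed. Of the 136, 89 lay in the dimmest 30% of genes and 10 differed at least 4-fold. Of 534 measured list genes 4 (0.749%) were among them: Siglech, Cd8a, Bglap and Prf1, which mark plasmacytoid dendritic cells, T cells, osteoblasts and cytotoxic lymphocytes. Siglech stood at -0.49 and -3.26, a 6.82-fold difference on its single probe. Cd8a stood at -3.01 and -5.15, a 4.40-fold difference. Cd8a, Bglap and Prf1 were dim, each on a single probe. Their signals were 39 and 9, 28 and 12, and 26 and 12, beside lowest signals well above background of 7.34 and 6.19. Whether the share of other cells differed between the samples was not tested. No granule, cell cycle, metabolic or regulator gene of the lists differed by 2-fold.

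The largest difference was that of a Cdk12 probe, whose signal was 113 on WT replicate 1 and 98331 on WT replicate 2. The scanner software marked this spot on WT replicate 2 as non-uniform. The other 4 probes of Cdk12, a kinase that acts on RNA polymerase II, differed by 0.37 or less between the arrays and had means from -3.82 to 0.20. The brightest-probe rule thus gave Cdk12 a level of 3.42 and rank 2012, which rests on the marked spot. Among the 12 most different genes with a gene name the others, beside Siglech and Cd8a, were Diras1, Rpl39l, Grin1, Inka2, Rax, Tctex1d4, Olfr1206, Mslnl and Foxq1, with 3.03-fold to 4.22-fold differences. All of these except Foxq1, at 1.24 and -0.36, had mean levels below -3.

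The direction of the small differences depended on signal and scaling. The share of genes higher on WT replicate 1 was 50.9% over all measured genes, 39.4% in the dimmest 10% and 67.9% in the brightest. With the authors' deposited values the share over all genes was 74.8%. TCA cycle genes were higher on WT replicate 1 in 20 of 23 cases and mitosis genes in 34 of 45. So were pentose phosphate genes in 7 of 7, fatty acid oxidation genes in 10 of 12 and lipid synthesis genes in 18 of 24. In azurophil genes it was 7 of 17, and in erythroid markers 3 of 12. Under normexp background correction the counts of TCA cycle and mitosis genes were 2 and 5, whereas normexp fitted without control spots gave 19 and 32. The other alternatives gave 15 to 22 TCA cycle genes and 26 to 41 mitosis genes. Whether the tilt lies in the samples or in the arrays was not tested.

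Both arrays lay on the same slide. Of the spots, 59.6% and 62.9% were well above background, 0 were saturated, and 79 and 76 were marked as outliers. The lowest signal well above background was 7.34 and 6.19, and the highest 512482 and 578933. Spike-in RNAs of known amount followed a line of log10 signal on log10 amount with slopes of 0.992 and 1.0 and R squared of 0.986 and 0.987. The number of arrays limits the precision. On mm9, the build of the array annotation, the probe of Mpo lies at chr11:87617102-87617877, that of Prtn3 at chr10:79343869-79344685, that of Ctsg at chr14:56718795-56718854 and that of Ltf at chr9:110942873-110942932. The probe of Camp lies at chr9:109749992-109750051, that of Ngp at chr9:110324266-110324814 and that of Lcn2 at chr2:32241037-32241281. The intervals of Mpo, Prtn3, Ngp and Lcn2 are longer than the 60 bases of a probe, so the probe does not fill them. Whether the probes lie in coding sequence was not analysed here.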

How the data were processed

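Per the labels' protocols, RNA was purified with DNase digestion and labelled with Cy3 by a low-input kit. The deposited intensity of a spot is, per the file headers, the background-subtracted signal of Agilent Feature Extraction 10.5.1.1, not scaled between arrays. The authors' deposited table holds log2 values. Against the scanner signals (r of 0.99998 and 0.99996) each column differed by an offset of 0.173 and 0.061, so its centring was read from the data. Its 2 columns of knockout samples were not used.

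The 75th percentile over non-control spots was subtracted from log2 signals, spots of a probe were averaged and outlier spots kept. Of 41174 probes, 24208 were well above background on both arrays. Gene names were updated through a RefSeq table of GRCm38.p6 (26933 probes by accession, 5570 with a current symbol, 894 by synonym, 7777 as in the files). With 2 arrays of 1 group there was no test. Alternatives changed the background correction (normexp, offset 50, limma 3.58.1 in R 4.3.3), scaling, starting values, filter, probe rule, outlier spots, names and arrays. Computation used Python 3.11.15, pandas 2.3.3 and numpy 2.4.6, and the ranking was tested on simulated data.

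The members and the 26 lists were chosen with earlier results of these data known. Of 583 list genes, 534 were measured, 41 were not well above background on both arrays and 8 had no probe. Named genes were the 20 brightest, the 12 most different between arrays, in each list the 6 highest, the 3 lowest and those not above background, all members of the granule, oxidase, inhibitor and factor lists, the 7 markers, and the 5 genes of widest probe span. Histone genes, Slc2a3 and the list members that differed 2-fold were named after their values were seen. Some list members are not reported here.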

Additional observations from a re-analysis of the deposited data

How the results depend on the processing

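Of 305 recomputed values, 288 were counts within 1.5 times the main count or an equal median, and 17 were not. Within that limit counts still shifted: glycolysis genes in the top 10% from 15 to 10 with the dimmest probe, and G1/S genes from 19 to 28 and mitosis genes from 15 to 21 with no filter. The genes measured numbered 27630 with no filter on dim probes, since all genes then count. The median absolute difference between arrays, 0.116 in the main setting, was 0.112 with the percentile over spots well above background, 0.11 after quantile normalization, 0.121 without scaling, 0.177 with the authors' deposited values, 0.128 with probes above background on at least 1 array, 0.196 with no filter, 0.134 with the dimmest probe and 0.114 with the mean over probes. It was 0.716 with normexp and 0.0797 with normexp fitted without control spots, an alternative chosen after seeing the data. Genes differing 2-fold, 136 in the main setting, numbered 5032 and 27 under these fits, 725 with at least 1 array above background and 2125 with no filter, and 707 passed a threshold of 1.5-fold. Transcription factors in the top 10% numbered 20 in place of 12 with no filter. Among 159 named genes, the dimmest probe moved the percentile of 59 by over 10 points and no filter that of 58. The cause of the shift with normexp was not tested beyond that fit. Signals below 7.34 and 6.19 were never well above background. No paired analysis was possible because only 1 group of 2 arrays was used.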
